A study of Mus musculus with 2 samples.

Results

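The genes described here are 31 genes of DNA replication and S phase, chosen by symbol from the 23628 genes listed for *Sox9*GFPHi chondrospheres, and all 31 are listed in both libraries. They were grouped by role into 11 genes of origin licensing and the replicative helicase, 10 genes of the polymerases, clamp, clamp loader and lagging strand, 4 genes of nucleotide synthesis, and 6 genes of S phase regulation and chromatin assembly. Chondrospheres are colonies that grew from single cells in methylcellulose. The cells came from the femoral heads of 7-day-old reporter pups, homozygous for a *Sox9* locus that also expresses GFP, and were sorted for high GFP and for the absence of CD31, Ter119 and CD45. They were cultured in low oxygen in a serum-containing medium supplemented with FGF2, BMP4, IGF1, LIF and TGF-β1. Both libraries, named replicate 1 and replicate 2, carry the same label and are of 1 condition, and the labels do not say whether they came from separate pups, although the methods of the study treat each pup as a replicate. The question asked of them here is how the replication genes are expressed in these colonies and how far the 2 libraries differ in them. With 1 condition there is no test between groups, so no p-value is given, and a difference between the libraries describes these libraries only.

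Before each division a cell loads the helicase Mcm2 to Mcm7 onto origins with the help of Cdc6 and Cdt1, which is called licensing. In S phase Cdc45 and the GINS complex join the helicase and activate it, and the polymerases copy the strands with the sliding clamp PCNA, which the replication factor C complex loads. Many of these genes are transcribed mainly in late G1 and S phase under E2F transcription factors, whereas subunits used in other processes, such as DNA repair, are often transcribed throughout the cycle. In the growth plate, replication takes place in the proliferating columns and ceases as chondrocytes become hypertrophic.

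In RefSeq promoters of GRCm38.p6, which run from 250 bases before to 50 bases after each gene's start, 26 of the 31 genes had an entry, and those of *Gins1*, *Gins2*, *Mcm4*, *Pole* and *Ccne2* were missing. The E2F-type motif was searched on both strands as TTTGGCGC, TTTCGCGC, TTTCCCGC and TTTGCCGC, and overlapping matches were each counted. For 5 genes the 170 bases before the start are shown, 5′ to 3′ on the strand of the gene, with matches in capitals, since they range from the gene that differed most between the libraries to the one that differed least. *Mcm5* (chr8:75109339-75109508, plus strand) holds 2 overlapping matches, *Mcm6* (chr1:128359706-128359875, minus strand) holds 3, and *Pola1* (chrX:93632156-93632325, minus strand) holds 1. *Rrm1* (chr7:102441525-102441694, plus strand) and *Rfc4* (chr16:23127731-23127900, minus strand) hold none. These 5 genes do not stand for the list. In the whole window *Tk1*, *Chaf1b* and *Rrm2*, which also differed strongly between the libraries, held no match. *Mcm3* and *Pold1*, which differed by less than 2-fold after the centring described below, held 2 and 1.
Mcm5: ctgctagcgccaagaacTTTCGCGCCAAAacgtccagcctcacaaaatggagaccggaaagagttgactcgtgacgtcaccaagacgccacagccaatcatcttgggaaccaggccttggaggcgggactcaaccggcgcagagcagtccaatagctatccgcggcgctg
Mcm6: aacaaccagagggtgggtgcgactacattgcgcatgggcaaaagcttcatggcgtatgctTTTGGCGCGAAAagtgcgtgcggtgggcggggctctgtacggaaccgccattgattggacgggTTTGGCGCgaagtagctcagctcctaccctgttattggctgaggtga
Pola1: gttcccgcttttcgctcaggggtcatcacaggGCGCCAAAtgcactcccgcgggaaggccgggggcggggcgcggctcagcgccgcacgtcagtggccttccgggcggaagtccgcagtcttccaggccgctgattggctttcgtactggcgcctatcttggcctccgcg
Rrm1: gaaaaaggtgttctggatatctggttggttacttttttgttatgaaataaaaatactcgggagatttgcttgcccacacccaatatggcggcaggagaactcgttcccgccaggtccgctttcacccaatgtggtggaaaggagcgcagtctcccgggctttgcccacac
Rfc4: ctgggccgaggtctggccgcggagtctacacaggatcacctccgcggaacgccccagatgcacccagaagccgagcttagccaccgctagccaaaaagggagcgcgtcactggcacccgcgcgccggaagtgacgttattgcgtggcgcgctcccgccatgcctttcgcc

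The libraries differed as a whole. Where 2 levels of a gene are given together, the first is that of replicate 1 and the second that of replicate 2. The steps between low values imply that 1 read was worth 0.0231 and 0.0237 CPM, a similar depth, so that 3 reads, the smallest level taken as measurable, equal 0.0693 and 0.0712 CPM (counts scaled to the total of a library). The 10 highest genes made up 43.4% and 34.7% of the libraries. A filter kept the 12631 genes whose mean reached 1 CPM. Their log2 ratios of replicate 2 to replicate 1 had a median of 0.30, and ratios between the libraries are given below relative to it (centred). All 8 chondrocyte markers were measured in both libraries, including *Sox9* at 252 and 279 CPM, but 6 of the 8 had a lower CPM in replicate 2. The summed level of the 8 was 187245 and 129663 CPM, most of it *Col2a1* at 148953 and 100682 CPM. After centring *Matn3*, at 741 and 53.1 CPM, and *Col9a1*, at 1881 and 1087 CPM, were more than 2-fold lower, and the other 6 did not pass 2-fold. The 5 osteoblast markers all had a higher CPM in replicate 2, as 13361 of all 23628 genes did. Their sums were 4.86 and 52.7 CPM, most of it *Dmp1* at 0.116 and 40.4 CPM. Of the 4 past the filter, 3 were more than 2-fold higher after centring, beside 7.43% of all genes. The osteoclast marker *Acp5*, at 6.07 and 0.712 CPM, was more than 2-fold lower, and *Ctsk*, at 111 and 144 CPM, did not pass 2-fold. The 6 fibroblast markers summed to 9.30 and 12.1 CPM, mostly *Ly6a*. Of the endothelial markers *Cdh5*, *Kdr*, *Tie1* and *Emcn* were listed at 0 in both libraries, and *Pecam1* was at 0.231 and 0.166 CPM. The 6 leukocyte markers listed summed to 3.21 and 3.51 CPM, mostly *Cd68* at 2.56 and 2.40 CPM and *Lyz2* at 0.624 and 0.949 CPM, while *Ptprc* was at 0.0231 and 0.0474 CPM and *Adgre1* and *Itgam* were listed at 0. The part of these differences in the results below was not tested.

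All 31 replication genes had a higher CPM in replicate 2 than in replicate 1. Among all 23628 genes listed, 13361 had a higher and 6856 a lower CPM in replicate 2. The levels of the 31 genes summed to 208 and 589 CPM, or 2.83 times as much. The median gene of the list was at 4.0 and 11.6 CPM. Of the 30 genes past the filter, 21 were more than 2-fold higher in replicate 2 after centring and none was more than 2-fold lower. Among all 12631 genes past this filter, 7.43% were higher and 6.06% lower by the same rule, and the median centred log2 ratio, 0 over all genes by construction, was 1.20 over the 30. Without centring 26 of the 30 were past 2-fold, while the genes higher in replicate 2 made up 75.4% of all genes past 2-fold in either direction, against 55.0% with centring. With centring, the remaining 9 of the 30 lay between 0.03 and 0.98 on the centred log2 scale, all above the median of all genes. In 29 of the 30 the centred difference exceeded 1.96 times the counting error alone, the exception being *Rfc4*. So it did in 9034 of all 12631 genes past the filter. The counting error does not include the spread between cultures. In bulk RNA a larger share of cells in S phase and more of these RNAs per cell cannot be told apart.

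**Figure D1:**
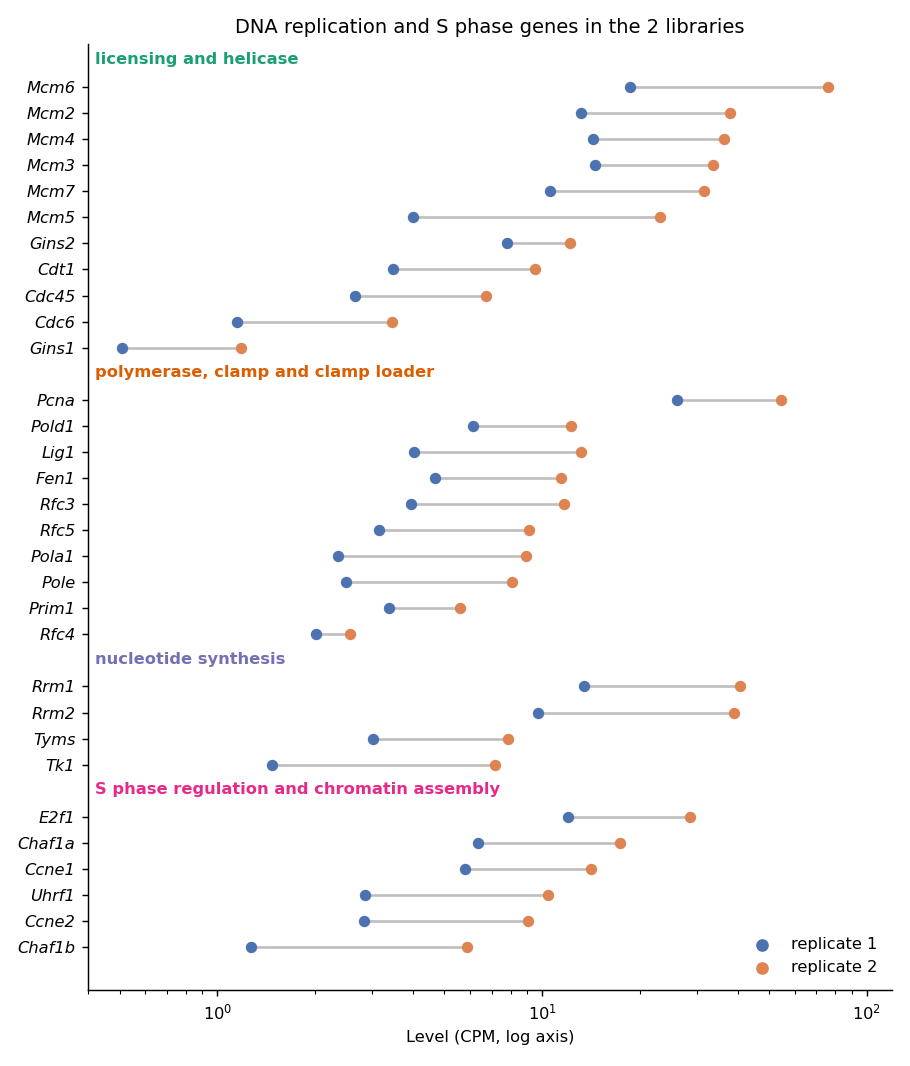
Levels of the 31 genes in CPM on a log axis, grouped by role, with 1 point per library (blue, replicate 1; orange, replicate 2) and a line joining them. For every gene the orange point lies to the right of the blue one, from the short line of *Rfc4* (2.01 and 2.56 CPM) to the long line of *Mcm5* (4.0 and 23.0 CPM).

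Among the genes of origin licensing and the helicase, 8 of the 10 past the filter were more than 2-fold higher in replicate 2, with a median centred log2 ratio of 1.16. *Mcm6*, a helicase subunit gene (chromosome 1, bases 128331590 to 128359664), had 18.6 and 75.9 CPM, a centred log2 ratio of 1.72. *Mcm5* (chromosome 8, bases 75109569 to 75128439) had 4.0 and 23.0 CPM, and its ratio of 2.19 was the largest of all 31 genes. The other helicase subunits lay closer together. *Mcm2* had 13.2 and 37.8 CPM, *Mcm4* 14.3 and 36.3 CPM, *Mcm7* 10.6 and 31.5 CPM, and *Mcm3* 14.6 and 33.6 CPM, with centred log2 ratios of 1.21, 1.03, 1.26 and 0.90. *Mcm3* was the only subunit of the hexamer that did not pass 2-fold, and without centring its log2 ratio was 1.20, past it.

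The remaining genes of this group load or activate the helicase. *Cdt1*, which brings the helicase to origins, had 3.49 and 9.54 CPM, a centred log2 ratio of 1.12. *Cdc6*, the ATPase that acts with it, had 1.15 and 3.44 CPM, a ratio of 1.20. *Cdc45*, which travels with the active helicase, had 2.66 and 6.74 CPM and lay just past the 2-fold line at 1.01. The GINS genes encode a part of the same active helicase. *Gins2* had 7.80 and 12.2 CPM, a centred log2 ratio of 0.34 and the lowest of this group, and *Gins1*, at 0.508 and 1.19 CPM, had a mean below the filter and about 22 and 50 reads.

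In the polymerase, clamp and clamp loader group, 5 of 10 genes were more than 2-fold higher in replicate 2 and the median centred log2 ratio was 1.08 over a range from 0.03 to 1.57. *Pola1* and *Pole*, large catalytic subunits, lay toward the upper end. *Pola1*, the catalytic subunit of polymerase alpha, had 2.36 and 8.90 CPM, a ratio of 1.57. *Pole*, of the leading strand polymerase epsilon, had 2.50 and 8.06 CPM, a ratio of 1.35, while *Pold1*, of polymerase delta, had 6.12 and 12.3 CPM and 0.69. *Prim1*, the primase that starts each strand, had 3.37 and 5.60 CPM, a centred log2 ratio of 0.41.

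*Pcna*, the sliding clamp, had 26 and 54.3 CPM and a centred log2 ratio of 0.75, under 2-fold. Of the clamp loader genes, *Rfc3* had 3.95 and 11.6 CPM and *Rfc5* 3.14 and 9.10 CPM, with ratios of 1.23 and 1.20. *Rfc4* (chromosome 16, bases 23113943 to 23127737) had 2.01 and 2.56 CPM and a centred log2 ratio of 0.03, close to that of the median gene. The enzymes that finish the lagging strand were *Lig1*, DNA ligase I, at 4.03 and 13.2 CPM, and the flap nuclease gene *Fen1* at 4.69 and 11.4 CPM, with ratios of 1.39 and 0.96. Reads of *Pcna* and *Mcm7* are less certain than the rest, because 31.8% and 26% of the 50-base stretches of their longest coding transcripts also occur in the pseudogenes *Pcna-ps2* and *Gm5487*. Those were listed at 1.37 and 1.73 CPM and at 0.0761 and 0.605 CPM.

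All 4 nucleotide synthesis genes were more than 2-fold higher in replicate 2, and their median centred log2 ratio of 1.49 was the highest of the 4 roles. The rank holds for these 4 genes only, since the median of the 12 other nucleotide synthesis genes considered below was 0.12. *Rrm2*, the S phase subunit of ribonucleotide reductase (chromosome 12, bases 24708241 to 24714146 of GRCm38), had 9.75 and 39.0 CPM, a ratio of 1.68. *Rrm1*, its large subunit, had 13.5 and 40.9 CPM and a ratio of 1.29. *Tk1*, the thymidine kinase of the cytosol, had 1.47 and 7.17 CPM, and its ratio of 1.91 was second to *Mcm5* among the 31 genes. *Tyms*, which makes thymidylate, had 3.03 and 7.84 CPM, a ratio of 1.04. The 4 genes together summed to 27.7 and 94.8 CPM.

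Of the 6 genes of S phase regulation and chromatin assembly, 4 were more than 2-fold higher in replicate 2, with a median centred log2 ratio of 1.24. *Chaf1b* and *Chaf1a*, subunits of the factor that places histones on new DNA, had 1.27 and 5.86 CPM and 6.37 and 17.4 CPM, with ratios of 1.82 and 1.13. *Uhrf1*, which guides maintenance methylation, had 2.84 and 10.5 CPM, a ratio of 1.54, although 18.9% of its 50-base stretches occur in other genes. The E type cyclins and the factor that drives them were *Ccne2* at 2.82 and 9.06 CPM, *Ccne1* at 5.78 and 14.2 CPM, and *E2f1* at 12.0 and 28.6 CPM. Their ratios were 1.34, 0.98 and 0.94, so that *Ccne1* and *E2f1* lay just under 2-fold and *Ccne2* past it.

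**Figure D2:**
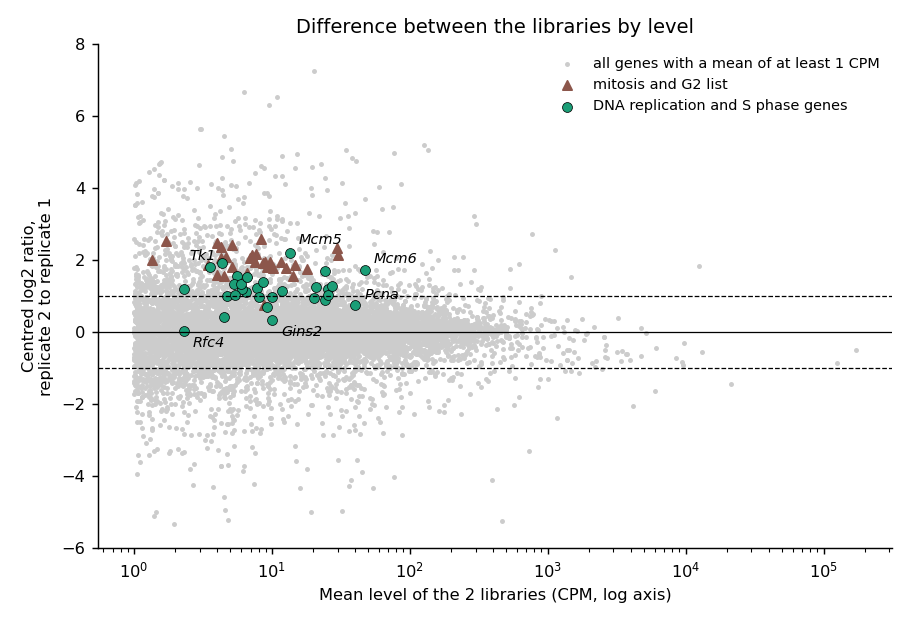
Centred log2 ratio of replicate 2 to replicate 1 against the mean level in CPM (log axis) for the 12631 genes past the filter (grey), the mitosis and G2 list (brown triangles) and the 30 replication genes past the filter (green circles); dashed lines mark 2-fold. All green circles lie above 0, in the range of levels from 2.29 CPM (*Rfc4*) to 47.3 CPM (*Mcm6*), and all but 1 of the triangles lie past the upper dashed line.

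Levels of different genes were compared per length, as CPM per kb of annotated exon. On this scale *Pcna* was the highest of the 31 genes in both libraries, at 10.8 CPM per kb in replicate 1 and 22.6 CPM per kb in replicate 2. *Mcm6* followed in replicate 2 at 16.3 CPM per kb, ahead of *Rrm2* at 14.1 CPM per kb, whereas in replicate 1 *Mcm4* (4.0), *Mcm6* (4.0), *Mcm3* (3.89), *E2f1* (3.80) and *Rrm2* (3.52 CPM per kb) lay within a narrow range of one another. The lowest levels per length in replicate 1 were those of *Cdc6* and *Pole* at 0.219 and 0.224 CPM per kb, and in replicate 2 again *Cdc6* and *Pole*, at 0.658 and 0.722 CPM per kb. By role, the median level was 3.38 CPM per kb for licensing and helicase, 1.69 for polymerase, clamp and clamp loader, 1.68 for nucleotide synthesis and 1.63 for S phase regulation and chromatin assembly, as means of the 2 libraries. This order depended on the length used: per kb of the longest coding transcript the medians were 3.99, 2.69, 4.90 and 2.06 CPM per kb, which puts nucleotide synthesis first. *Rrm2* exceeded *Rrm1* per kb by a log2 ratio of 1.72 ± 0.28 (SD, n = 2), or 0.60 by the longest coding transcript, *Cdt1* exceeded *Cdc6* by 2.27 ± 0.09 (SD, n = 2), and *Ccne1* exceeded *Ccne2* 2.69-fold in replicate 1 and 2.05-fold in replicate 2.

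The subunits of the helicase, which form a ring with 1 copy of each, were not equal in RNA. Per kb they spanned 3.99-fold in replicate 1, from *Mcm5* to *Mcm4*, and 3.0-fold in replicate 2, from *Mcm2* to *Mcm6*. The SD of their log2 levels per kb was 0.80 in replicate 1 and 0.59 in replicate 2. The smaller spread in replicate 2 rested on *Mcm5*, the lowest in replicate 1, and did not hold for the other subunits. Of those *Mcm2* was the lowest per kb of exon in both libraries, and *Mcm6* exceeded it 2.11-fold in replicate 1 and 3.0-fold in replicate 2. Per kb of the longest coding transcript all subunits of the ring spanned 4.07-fold and 2.56-fold. By this length *Mcm5* was the lowest in replicate 2 in place of *Mcm2*, at 6.81 against 11.2 CPM per kb. *Mcm6* and *Mcm2* were then at 4.28 and 3.91 CPM per kb in replicate 1 and at 17.4 and 11.2 in replicate 2. After *Mcm5* the lowest was then *Mcm7* (3.58) in replicate 1 and *Mcm4* (10.1) in replicate 2. The subunits of polymerase alpha-primase had a span of 3.26-fold in replicate 1 and 1.43-fold in replicate 2, with *Pola1* the lowest in both. *Pola2*, its second subunit, exceeded *Pola1* 2.84-fold per kb in replicate 1 and 1.23-fold in replicate 2, while the ratio of *Prim1* to *Prim2* was 1.34-fold in replicate 1 and 1.33-fold in replicate 2. By the longest coding transcript the mean log2 ratio of *Pola1* to *Pola2* was -1.96 in place of -0.90, and the 4 subunits spanned 5.91-fold and 2.56-fold. The change of a ratio from one library to the other is the same with either length.

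The 9 complexes hold 22 further subunits, including those of the origin recognition complex and replication protein A, and their centred log2 ratios ran from -0.72 for *Pold3* to 0.77 for *Pole4*. *Orc2* to *Orc5*, subunits of the origin recognition complex on which licensing starts, had centred log2 ratios of 0.17, 0.02, 0.0024 and -0.58, *Orc6* had 0.40, and *Orc1*, the subunit that is degraded and made again in each cycle, had 0.666 and 1.18 CPM with a mean below the filter. *Rfc1* and *Rfc2*, the other clamp loader subunits, had 22.6 and 29.4 CPM and 14.1 and 19.5 CPM, with ratios of 0.08 and 0.16. Of replication protein A, which coats single-stranded DNA, *Rpa1* had 24.4 and 42.1 CPM with a ratio of 0.48, while *Rpa2* and *Rpa3* were at -0.03 and -0.10. *Pold3* had 11.6 and 8.68 CPM, a centred log2 ratio of -0.72, against 0.69 for *Pold1* of the same polymerase. *Pole4* at 0.77 lay above *Pcna* at 0.75, and *Gins4* was at 0.56. Of the 22 subunits 21 passed the filter and 0 were past 2-fold, beside 7.43% higher and 6.06% lower among all genes, which is near that share for so few genes.

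**Figure D3:**
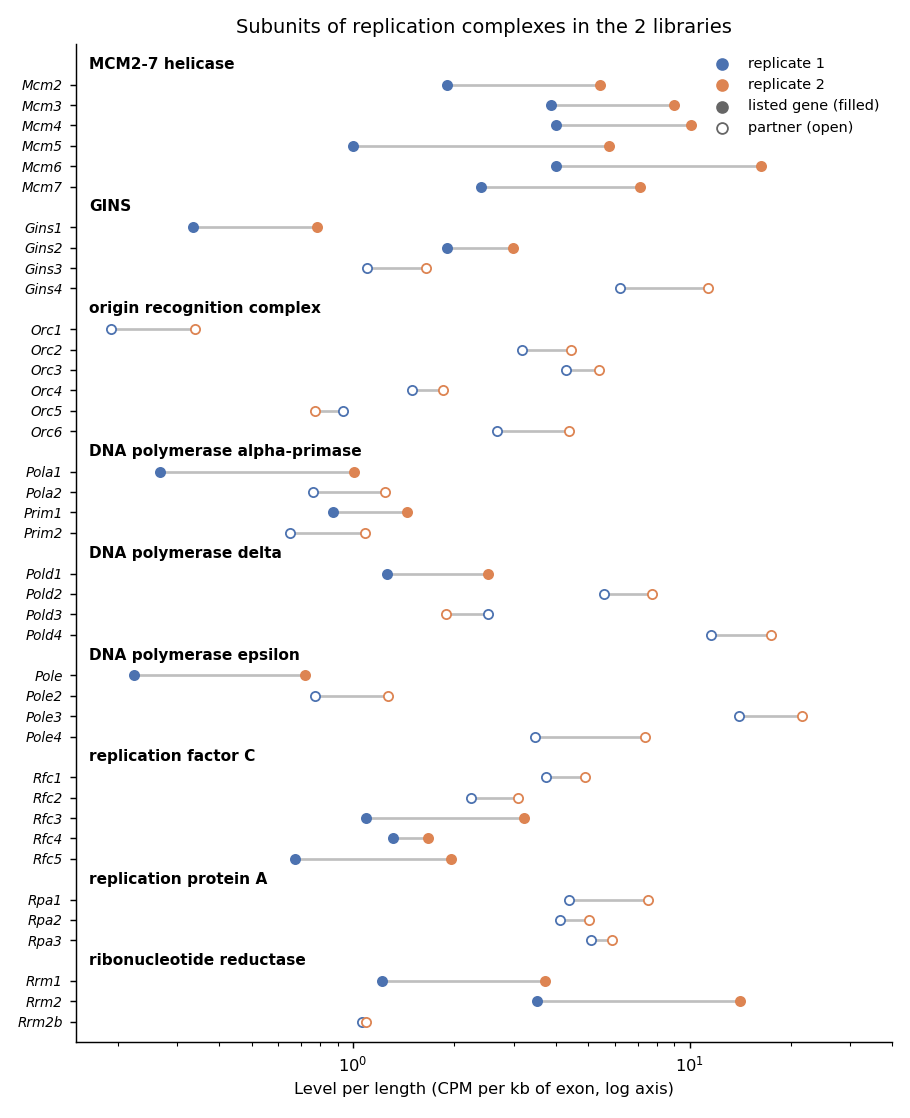
Level per length, in CPM per kb of exon on a log axis, of the subunits of 9 replication complexes in replicate 1 (blue) and replicate 2 (orange), with filled points for the 31 genes and open points for partners. The joining lines are long for *Mcm5*, *Mcm6*, *Pola1*, *Pole*, *Rrm1* and *Rrm2* and short for *Orc3*, *Rpa3* and *Rrm2b*, and for *Orc5* and *Pold3* the order of the libraries is turned.

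Some genes have a relative that works outside S phase, here *Rrm2b* and *Tk2*. *Rrm2b*, the reductase subunit that supplies nucleotides to resting cells and for repair, had 9.69 and 9.96 CPM, a centred log2 ratio of -0.27. Per kb *Rrm2* exceeded it 3.32-fold in replicate 1 and 12.9-fold in replicate 2. *Tk2*, the thymidine kinase of mitochondria, had 8.64 and 8.09 CPM, a ratio of -0.40, and exceeded *Tk1* per kb of exon 8.56-fold in replicate 1 and 1.64-fold in replicate 2. The order in replicate 2 turned with the length used: per kb of the longest coding transcript *Tk2* exceeded *Tk1* 3.52-fold in replicate 1, but *Tk1* exceeded *Tk2* 1.48-fold in replicate 2. *Dnmt1* is not such a relative but a partner, the maintenance methyltransferase that Uhrf1 brings to new DNA. It had 31.8 and 49.3 CPM, a ratio of 0.33 against 1.54 for *Uhrf1*.

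In the lists of further replication genes, 63 genes in all, 9 of the 61 past the filter were more than 2-fold higher in replicate 2 and none was more than 2-fold lower, with a median centred log2 ratio of 0.29. The share of 14.8% compares with 70.0% of the 30 genes and 7.43% of all genes. Of 18 other genes of origin licensing and firing, 3 passed, namely *Ticrr*, needed to fire origins, at 0.30 and 3.18 CPM (about 13 and 134 reads) with a ratio of 2.73, *Dbf4*, the activator of the Cdc7 kinase, at 3.58 and 9.73 CPM, and *Gmnn*, the inhibitor of Cdt1, at 1.41 and 3.68 CPM. The ratio of *Cdt1* to *Gmnn* per kb was nearly the same in both libraries, at 1.15-fold and 1.21-fold. *Mcm10*, which helps to activate the helicase, had 2.22 and 3.89 CPM, a ratio of 0.48. Of 23 other polymerase, clamp loader and fork genes, 3 passed, all at the fork or the loading of the clamp: *Clspn* with 2.10 and 8.90 CPM and a ratio of 1.73, *Timeless* with 1.76 and 6.14 CPM and 1.45, and *Chtf18* with 1.27 and 3.34 CPM and 1.02. Of 12 other nucleotide synthesis genes 2 passed, among them *Umps*, of pyrimidine synthesis, which had 7.65 and 19.1 CPM with a ratio of 1.0. Of 8 other genes of chromatin replication only the histone chaperone gene *Asf1b* passed, at 1.09 and 4.67 CPM with a ratio of 1.70.

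Of 22 genes that control entry into S phase, 3 were more than 2-fold higher and 1 was more than 2-fold lower, near the 7.43% and 6.06% of all genes, with a median centred log2 ratio of 0.35. *Ccnd1*, the cyclin that growth factors induce in G1, had 54.2 and 207 CPM, a ratio of 1.63. The repressors *E2f8* and *E2f7*, themselves transcribed in S phase, had 1.20 and 8.16 CPM and 0.601 and 2.82 CPM, with ratios of 2.36 and 1.76. With about 26 and 119 reads, *E2f7* passed the filter only through replicate 2. *Cdkn1c*, an inhibitor of cyclin-dependent kinases that is prominent in chondrocytes leaving the cycle, had 4.27 and 2.24 CPM, a ratio of -1.21. *Ccne1*, next in order after the D cyclins, lay 5.31-fold below *Ccnd1* per kb in replicate 1 and 8.27-fold below it in replicate 2.

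A related set, a list of 30 genes of mitosis and G2, differed more between the libraries than the replication genes did. In it 29 of 30 genes were more than 2-fold higher in replicate 2, against 7.43% of all genes, and the median centred log2 ratio was 1.95 beside 1.20. Among the 29, *Bub1*, *Ttk* and *Cdc25c*, at 0.947, 0.347 and 0.393 CPM in replicate 1, passed the filter only through replicate 2. *Mki67*, the proliferation marker, had 8.13 and 50.8 CPM, and *Top2a*, which untangles chromosomes, had 9.31 and 50.8 CPM, with ratios of 2.32 and 2.13. *Cdk1* had 3.97 and 19.2 CPM and *Ccnb1*, its cyclin, 2.17 and 11.6 CPM, with ratios of 1.94 and 2.07. Only 1 of the 30 replication genes, *Mcm5*, lay above the median of the mitosis list, and 29 of its 30 genes lay above the median of the replication genes. Within a library, *Mcm2* exceeded *Mki67* per kb 2.35-fold in replicate 1 and 1.08-fold in replicate 2 (a mean log2 ratio of 0.67, or 1.71 by the longest coding transcript), and *Pcna* exceeded *Top2a* 10.5-fold and 4.01-fold. Since a pair of libraries gives 1 ratio per gene, the difference between both lists was not tested.

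**Figure D4:**
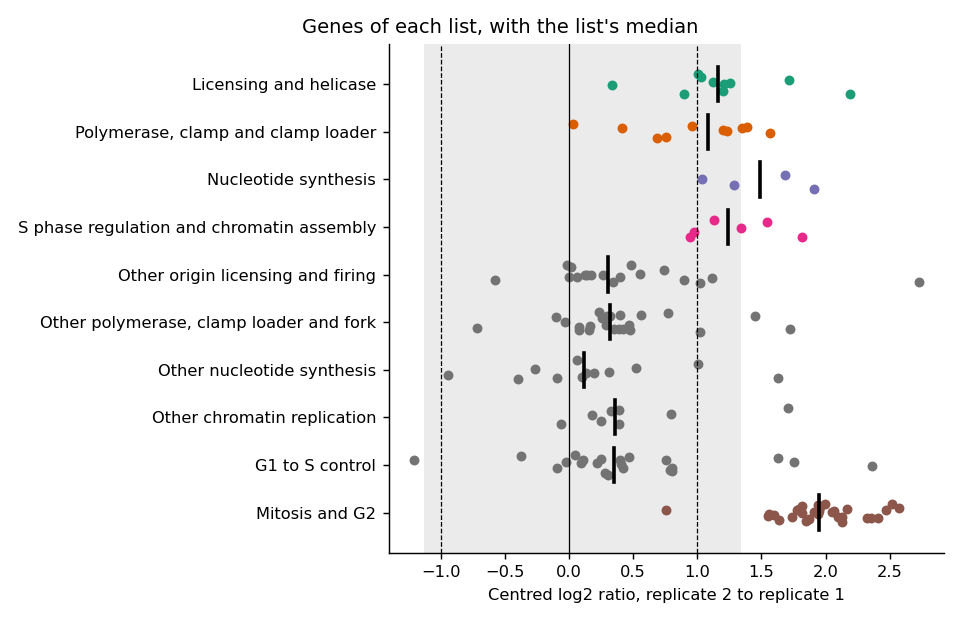
Centred log2 ratio of replicate 2 to replicate 1 for each gene past the filter (points), by list, with the list's median as a black bar; the grey band runs from the 5th to the 95th percentile of all genes past the filter (-1.12 to 1.33) and dashed lines mark 2-fold. Medians of the 4 roles lie between 1.08 and 1.49, those of the other replication lists between 0.12 and 0.36, and that of mitosis and G2 at 1.95.

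The promoters of these lists held unequal shares of known motifs. Of the 26 genes with a promoter entry, 11 (42.3%) held an E2F-type motif, against 2.60% of all 27025 genes with an entry and 4.79% of the genes past the filter. In terms of single promoters, 2.26% of all 32851 of this length held one. In the 200 bases before the start alone, 7 of the 26 (26.9%) held it, against 35.3% of the G1 to S control list and 3.41% of the genes past the filter. In the whole window the share was 6 of 8 for licensing and helicase, namely *Mcm3*, *Mcm5*, *Mcm6*, *Mcm7*, *Cdc6* and *Cdt1* (4 of 8 in the shorter window), 4 of 9 for polymerase, clamp and clamp loader, 0 of 4 for nucleotide synthesis and 1 of 5 for S phase regulation and chromatin assembly. *Mcm6*, shown above, held 3 matches, whose first bases are at -110, -106 and -47 from the start. *Rrm1*, *Rrm2*, *Tk1* and *Tyms* held none although all were more than 2-fold higher in replicate 2, which says only that these letters are not in this window. The other replication genes held the motif in 11 of 51 (21.6%), the G1 to S control list in 7 of 17 (41.2%) and the mitosis list in 1 of 24 (4.17%). The CHR motif, searched as TTTGAA on both strands, which is known from promoters of mitotic genes, showed the opposite order, with 3 of 26 (11.5%) of the replication genes, 18 of 24 (75.0%) of the mitosis list and 20.2% of all genes, or 14.1% of the genes past the filter, to which the replication genes are close. Among the 31 genes and the other replication genes together, the E2F-type motif was held by 10 of 25 (40%) of those more than 2-fold higher and by 11 of 51 (21.6%) of those not past 2-fold. The pooled lists differ in both traits, so this contrast cannot be told apart from their mix. The motif was in 42.3% and 21.6% of them, while 70.0% and 14.8% were more than 2-fold higher. The contrast within each list was not tested. A match is a description of the sequence and not a measured binding site.

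**Figure D5:**
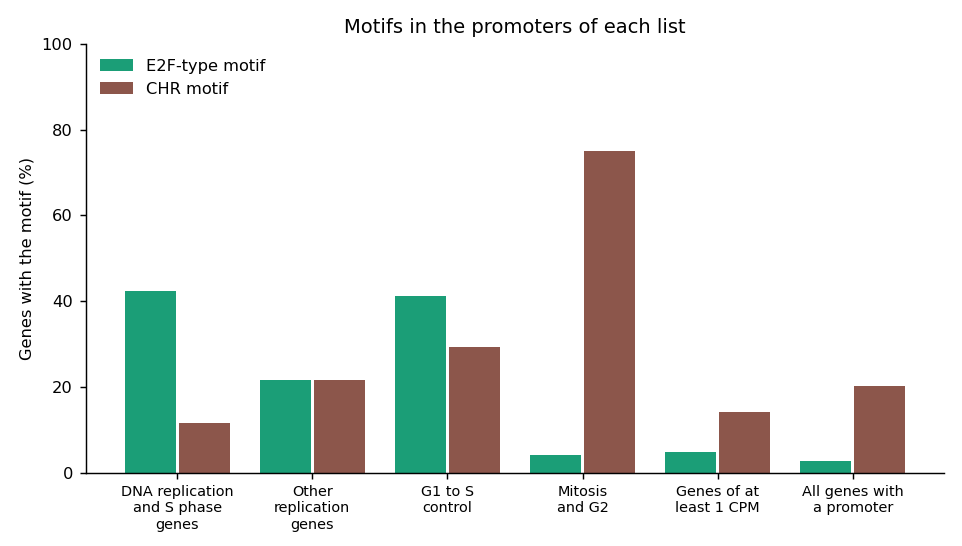
Percent of genes in each list whose promoter (250 bases before to 50 bases after the start) holds an E2F-type motif (green) or a CHR motif (brown). The green bar is the higher one for the replication genes (42.3% against 11.5%) and the brown bar for the mitosis and G2 list (75.0% against 4.17%).

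The 31 genes are spread over 14 chromosomes, with 5 on chromosome 5 and 4 each on chromosomes 7 and 16. The closest pair is *Chaf1a* and *Uhrf1* on chromosome 17, 231 kb apart, and both were more than 2-fold higher in replicate 2. The next closest, *Gins2* and *Cdt1* on chromosome 8, lie 1979 kb apart and differed in ratio, at 0.34 and 1.12.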

How the data were processed

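The 2 libraries hold poly(A) RNA of *Sox9*GFPHi chondrospheres, sequenced as stranded single-end reads of 50 bases. Per the labels and the methods of the study, reads were aligned to GRCm38 with GENCODE M25 by STAR 2.7.3a in Partek Flow 10.0.21.0801 and assigned to genes by Partek E/M, which can divide a read among genes. The deposited values are CPM, which the authors made by scaling each library to its total, with an offset of 0.0001 on every value. The offset was subtracted here. Of the low values 65.3% and 63.8% were whole multiples of 1 read (within 0.02), which left too few to rebuild reads for a count test. Log2 ratios used a pseudocount of 0.1 CPM, understate the differences of low genes, and were centred on their median over genes whose mean reached 1 CPM. Counting errors take reads as Poisson counts. Lengths and coordinates come from GENCODE M21 on GRCm38 (97.2% of the listed genes matched one gene) and promoters from RefSeq on GRCm38.p6. The ratio step was tested on simulated data. The genes and lists were chosen with earlier results of these data known. Named beside the 31 genes are those of each list past 2-fold (up to 4 in each direction, with a withheld result not reported here) and *Mki67*, *Top2a*, *Cdk1*, *Ccnb1*, *Rrm2b*, *Tk2*, *Dnmt1*, *Orc1*, *Gmnn* and *Mcm10*; other complex subunits and pairs for ratios were chosen after their values were seen. Alternatives in scaling, pseudocount, filter, fold and length were run. The software was matplotlib 3.10.9, scipy 1.17.1, pandas 2.3.3 and numpy 2.4.6 under Python 3.11.15.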

Additional observations from a re-analysis of the deposited data

How the results depend on the processing

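No paired analysis was possible because both libraries are of 1 condition. Leaving out a library leaves no ratio, so this was done for levels alone, where the summed CPM of the 31 genes was 208 to 589 around a mean of 398. In all alternatives run, the 31 genes kept a median centred log2 ratio above 0 and none was more than 2-fold lower. Without centring the median was 1.51 for the 31 genes, 1.47 for licensing and helicase, 1.39 for polymerase, clamp and clamp loader, 1.79 for nucleotide synthesis, 1.54 for S phase regulation and chromatin assembly, 0.60 for the other replication genes and 2.25 for mitosis and G2. With totals that leave out the 10 highest genes, and no centring, it was, in the same order, 1.31, 1.27, 1.19, 1.59, 1.35, 0.39 and 2.06. A pseudocount of 1 CPM, which shrinks low genes by construction, gave 1.02, 0.97, 0.93, 1.35 and 1.08 for the 31 genes and the 4 roles and 1.64 for mitosis and G2. With only genes of at least 10 CPM, which keeps 12 of the 31, 8 of the 31 genes passed 2-fold. The value was then 0.74 for polymerase, clamp and clamp loader, where *Pcna* alone was left. It was 1.02 for S phase regulation and chromatin assembly, where only *E2f1* and *Chaf1a* were left, and 1.80 for mitosis and G2. At 3-fold 5 passed. With the other scalings and pseudocounts, with no filter and at 1.5-fold, the count was 16 to 27. Scaling by the median of genes of 1 to 100 CPM, chosen after seeing the data, gave 21 as before.

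Of all genes, 938 were higher and 766 lower past 2-fold, so that 55.0% of calls were higher. Without centring there were 1435 and 468, or 75.4% higher, with no filter 2012 and 2378, and with at least 10 CPM 296 and 265. There were 1700 and 1699 at 1.5-fold and 486 and 299 at 3-fold. The log2 ratio of *Rfc5* to *Rfc4* per kb was -0.37 as a mean, from -0.97 to 0.22 when either library was left out, and 0.11 with the longest coding transcript. That length moved 13 of 25 ratios between genes by more than their SD between libraries or, for *Rfc5* to *Rfc4*, turned the sign by less than it. Where the construction of an alternative does not show it, the cause was not tested. Depth limits the genes of few reads, such as *Gins1*, *Orc1* and *Ticrr*. Some genes past 2-fold, for example *Ticrr*, *E2f7* and *Bub1*, were below 1 CPM in replicate 1. They passed the filter on the mean only through replicate 2, where they were higher, so their calls are not independent of the filter.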

Other observations

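The replication-dependent histone genes, chosen after their values were seen and found by symbol, did not follow the replication genes. These genes supply the histones of new chromatin in S phase, and their RNA mostly ends without a poly(A) tail, so libraries of poly(A) RNA hold only a part of it. Of 57 such genes listed, 11 had a mean of at least 1 CPM, and of these 4 were more than 2-fold lower in replicate 2 and none was more than 2-fold higher, beside 6.06% lower and 7.43% higher among all genes, with a median centred log2 ratio of -0.86. The highest, the linker histone gene *H1f2*, had 155 and 74.3 CPM, a ratio of -1.37. *H1f4* had 5.74 and 3.09 CPM, *H1f3* 3.80 and 2.24 CPM and *H2bc6* 3.97 and 1.63 CPM, all lower in replicate 2, while *H2bc4* was at 43.8 and 43.3 CPM. Genes of this family are near-identical, so the division of reads among them is uncertain. Of 7 replacement histone genes, which are transcribed outside S phase too, none passed 2-fold, and their centred log2 ratios ran from -0.24 for *H1f0* to 0.61 for *H2ax*, with a median of 0.21.

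Some genes of repair at the fork and of chromatin, also chosen after their values were seen, were higher in replicate 2. Being so chosen they are examples and give no share, beside 7.43% more than 2-fold higher among all genes. The chromatin remodeller gene *Hells* had 2.98 and 15.8 CPM, a ratio of 2.07. *Fancd2*, of the repair of crosslinks, had 0.786 and 2.78 CPM, a ratio of 1.40. *Mcm8* and *Mcm9*, relatives of the helicase subunits that act in recombination and are not part of the replicative ring, had 1.64 and 2.7 CPM and 4.38 and 7.70 CPM, with ratios of 0.38 and 0.50, both under 2-fold.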
